A study of Homo sapiens with 12 samples.

Results

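The nuclear-encoded subunits of respiratory complexes II, III, IV and V, with cytochrome c, were followed in RNA from polysome fractions of HEK293 cells, a line derived from human embryonic kidney. Members were taken by a rule on gene symbols that holds no measured value, but that was set with earlier results of these data known. It took SDHA to SDHD for complex II, UQCR symbols and CYC1 for complex III, and CYCS for cytochrome c. For complex IV it took COX4 to COX8 symbols, and for complex V ATP5 symbols. The rule found 54 of the 23284 symbols of a first experiment and 48 of the 12421 symbols of a knockout experiment. Each group holds 2 libraries, collected 24 h after transfection with 5 ug of plasmid. The first experiment compared STING with empty vector in HEK293 cells whose labels give no genotype, and the knockout experiment compared STING with vector in PERK KO and in wild-type (WT) HEK293 cells. STING, listed under the older symbol TMEM173, is the adaptor of cytosolic DNA sensing, here present by plasmid overexpression, and PERK, the product of EIF2AK3, is a kinase that phosphorylates the translation factor eIF2alpha. The labels do not say whether the PERK KO cells were 1 clone, nor whether the 2 libraries of a group came from separate cultures, so the p-values below measure the spread between libraries only.

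The respiratory chain of the inner mitochondrial membrane passes electrons from nutrients to oxygen. Complex II (succinate dehydrogenase) feeds electrons from the citric acid cycle into ubiquinone, complex III (the cytochrome bc1 complex) passes them to cytochrome c, and complex IV (cytochrome c oxidase) passes them to oxygen. Complex V (ATP synthase) uses the proton gradient that complexes III and IV help to build. All subunits of complex II are encoded in the nucleus, while complexes III, IV and V also hold subunits encoded in mitochondrial DNA, which were not analysed here.

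Most of the 54 symbols belong to subunits or their tissue isoforms, and 9 do not. COX4NB, now EMC8, codes for a protein of the endoplasmic reticulum, COX7A2L for a factor of supercomplex assembly, and ATP5S and ATP5SL, now DMAC2L and DMAC2, are named for the distal membrane arm of complex I. UQCRHL and ATP5L2 are near copies of UQCRH and ATP5L, ATP5J2-PTCD1 is a read-through transcript, and UQCRBP1 and ATP5EP2 are pseudogenes. Fragments of a gene, its copies and its read-through may have been split between these entries, so their values are uncertain. They were kept in all counts, and 40 subunits were among the 47 members tested in the first experiment, which means a mean of at least 1 FPKM (fragments scaled by transcript length and by the number mapped). In the knockout experiment all 48 listed members were tested, 41 of them subunits.

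Of the 54 members, 38 have an entry in a table of RefSeq promoters on build GRCh38.p14, which covers 250 bases before and 50 bases after the start of a gene. The windows were searched on both strands, with overlaps allowed, for 3 cores of 7 letters: GCATGCG for NRF1, CCGGAAG for the ETS factors that include GABP, and AAGATGG for YY1, factors known as regulators of respiratory genes. The NRF1 core stood in 9 of the 38 windows (23.7%, against 4.1% of 27305 promoters and 5.1% of the 15843 of protein-coding genes), the ETS core in 15 (39.5%, against 10.7% and 14.2%) and the YY1 core in 9 (23.7%, against 6.1% and 6.4%). At least 1 of the 3 was found in 23 of 38 windows, or 60.5%, against 18.9% of all promoters. The NRF1 core was found in none of 7 complex III windows, in 2 of 15 of complex IV, in 4 of 12 of complex V, in 2 of 3 of complex II and in that of CYCS. A match is a run of letters and not a binding site. The 250 bases before the start are shown for the 2 complex IV subunits of the first experiment whose windows hold both an NRF1 and an ETS core, COX6A1 (chr12:120437863-120438112, plus strand) and COX5B (chr2:97645812-97646061, plus strand), and for the complex V subunits with the largest fall and the only rise past the threshold there, ATP5G1 (now ATP5MC1, chr17:48892537-48892786, plus strand) and ATP5A1 (now ATP5F1A, chr18:46104228-46104477, minus strand). Capitals mark the cores.
COX6A1: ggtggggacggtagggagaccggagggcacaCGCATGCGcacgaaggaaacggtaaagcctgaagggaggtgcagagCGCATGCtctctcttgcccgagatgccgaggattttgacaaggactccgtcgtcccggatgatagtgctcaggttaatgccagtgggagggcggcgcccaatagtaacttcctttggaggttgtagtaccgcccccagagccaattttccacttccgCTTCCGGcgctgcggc
COX5B: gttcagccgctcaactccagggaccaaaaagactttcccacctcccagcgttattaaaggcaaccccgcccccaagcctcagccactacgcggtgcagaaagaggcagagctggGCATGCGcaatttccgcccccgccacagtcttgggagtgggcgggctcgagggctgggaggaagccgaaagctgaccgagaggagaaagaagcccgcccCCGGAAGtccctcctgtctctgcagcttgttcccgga
ATP5G1: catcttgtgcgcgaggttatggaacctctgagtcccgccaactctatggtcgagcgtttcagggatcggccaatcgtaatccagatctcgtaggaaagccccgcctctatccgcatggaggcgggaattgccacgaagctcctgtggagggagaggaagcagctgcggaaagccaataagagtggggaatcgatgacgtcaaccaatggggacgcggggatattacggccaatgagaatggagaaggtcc
ATP5A1: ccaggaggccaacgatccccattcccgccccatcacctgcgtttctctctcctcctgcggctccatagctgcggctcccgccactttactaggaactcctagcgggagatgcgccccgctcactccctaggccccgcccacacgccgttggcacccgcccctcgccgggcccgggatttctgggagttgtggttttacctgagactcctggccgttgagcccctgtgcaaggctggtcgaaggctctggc
In the COX6A1 stretch, a palindromic run holds the NRF1 core on both strands, a further NRF1 core stands closer to the start, and an ETS core on the reverse strand begins 16 bases before it. The COX5B stretch holds the NRF1 core 136 bases and the ETS core 37 bases before the start. Neither the ATP5G1 nor the ATP5A1 window holds any of the 3 cores. Among the members that passed the threshold of the first experiment, the ETS core stood in 5 of 10 windows of those that were lower, against 10 of 24 windows of tested members that did not pass. For the NRF1 core these counts were 3 of 10 and 6 of 24, and for the YY1 core 2 of 10 and 7 of 24.

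Series-wide facts bear on the results below. TMEM173 stood at 65157 and 69253 FPKM in STING libraries of the first experiment, against 14.9 and 13.8 FPKM in vector libraries. In the knockout experiment it reached 10512 and 7338 FPKM in PERK KO cells with STING, against 41812 and 40660 FPKM in WT cells with STING, so genotype and STING level cannot be told apart there. EIF2AK3 was at 1, the lowest value of the knockout table, in 7 of its 8 libraries, so it cannot check the knockout. Of 7 markers listed for HEK293, 4 reached a mean of 1 FPKM in both groups of the first experiment, with NEFM listed at 0, while PTPRC, CD3E, HBB, COL1A2, DCN, LUM, MYH7 and MYL2, defining markers of blood cells, fibroblasts and muscle, were listed at 0. The whole tables shifted as well: between scalings of the libraries, the median log2 change of all genes with STING ranged between -0.27 and 0.05 in WT cells, between -0.11 and 0.04 in PERK KO cells and between -0.05 and 0.02 in the first experiment.

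Levels differed by complex. Over the 4 libraries of the first experiment, the median member of complex IV lay between 1553 and 2800 FPKM, that of complex III between 725 and 1009, that of complex V between 330 and 607 and that of complex II between 52.4 and 69.5, with CYCS between 40.5 and 45.3. These ranges do not overlap for complexes II to V, whereas in the knockout experiment those of complexes III and V overlapped (260 to 399 FPKM and 252 to 425 FPKM). COX6A1, a subunit with a muscle counterpart in COX6A2, was the highest member, at 6155 and 5450 FPKM with STING and 10681 and 8920 FPKM with vector. SDHA, the flavoprotein that oxidises succinate, was the lowest complex II subunit, at 25.5 and 28.8 FPKM with STING and 18.8 and 19.1 FPKM with vector. SDHB, the iron-sulfur subunit beside it, was the highest of complex II, at 191 and 155 FPKM with STING and 227 and 221 FPKM with vector. FPKM is per length, and the members' level still fell with coding length across the 46 members with a length in the first experiment (Spearman rho -0.51), much as over all genes tested (-0.50), a description across genes that share the libraries.

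**Figure D1:**
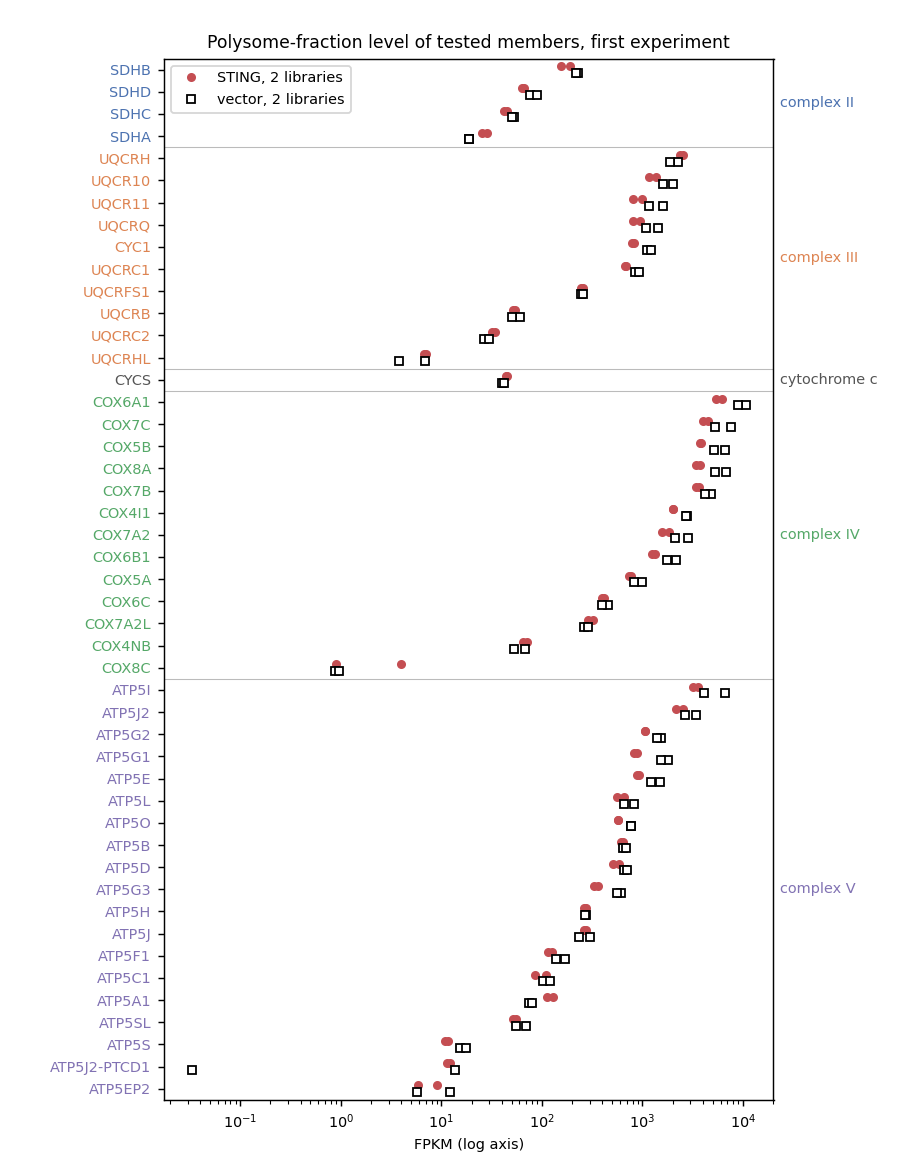
Level of the 47 tested members in each library of the first experiment, in FPKM on a log axis, with STING libraries as filled circles and vector libraries as open squares, grouped by complex and ordered by mean. Complex IV holds most of the highest members, led by COX6A1, and the STING points lie left of the vector points for 29 members without overlap.

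Tissue isoforms were low or listed at 0. COX4I2, COX6A2, COX7A1 and COX7B2 were listed at 0 in all 4 libraries of the first experiment, whereas their common counterparts COX4I1, COX6A1, COX7A2 and COX7B had means between 2078 and 7802 FPKM. COX6B2, the testis counterpart of COX6B1, did not exceed 0.648 FPKM in any library, and COX8C, the counterpart of COX8A, stood at 0.903 and 3.95 FPKM with STING and 0.874 and 0.964 FPKM with vector. The 3 genes of the c-ring of ATP synthase, whose products differ in the import presequence and share the mature protein, were all present, with means of 1268 FPKM for ATP5G2, 1265 for ATP5G1 and 464 for ATP5G3.

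In the first experiment, STING was accompanied by lower polysome levels of a set of complex III, IV and V subunits, a measure in which RNA amount and ribosome loading cannot be told apart. Of 47 members tested, 12 fell and 1 rose at a limma adjusted p under 0.05, while 9.29% of all 9464 genes tested fell and 2.51% rose (11.8% in either direction). All 13 were subunits. The members' median log2 change was -0.33, against -0.05 over all genes tested, and it was -0.26 with median-of-ratios scaling (0.01 over all genes) but 0.01 with quantile normalization (0.02). With those scalings 2 and 5 members fell, and 1 and 3 rose, with ATP5G1 and ATP5A1 past the threshold under both. Of all 9464 genes, 673 and 431 fell with those scalings, and 305 and 346 rose. With eBayes without trend and robust estimation no member passed the limma threshold, and 17 of all 9464 genes did. The member calls were also lost when STING library 1 or 2 was left out, where few genes of the whole table passed. The members' median log2 change was then -0.38 or -0.30. Without vector library 1, ATP5A1 no longer passed. ATP5G1, ATP5G3, COX6A1, COX8A and CYC1 still passed as lower there, and the read-through ATP5J2-PTCD1 passed as higher.

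The counts differed between complexes. In complex IV, 5 of 13 members fell (median log2 change -0.45), in complex V 5 of 19 fell and 1 rose (-0.33), in complex III 2 of 10 fell (-0.23), and in complex II none of 4 passed (-0.29). CYCS did not pass either. The differences between complexes were not tested. At an unadjusted limma p under 0.05, 24 members were lower and 2 higher (18.9% and 8.82% of all genes), among them 2 lower and 1 higher in complex II. The STING libraries lay below the vector libraries without overlap for 29 members and above them for 6, against 32.8% and 24.2% of all genes.

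High-level genes of any kind moved too. Among genes with a mean between 100 and 1000 FPKM, 4 of 16 members fell, against 38.9% of the 810 other genes. At 1000 FPKM and above, 8 of 17 members fell, or 47.1%, against 30.8% of 182 other genes, and their median log2 changes were -0.58 and -0.23. Between 10 and 100 FPKM, 0 of 10 members fell, against 13.4% of 2860 other genes. Between 1 and 10 FPKM, 0 of 4 members fell, against 2.01% of 5565 other genes.

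The c-ring genes of complex V carried the largest fall. ATP5G1 stood at 894 and 827 FPKM with STING and 1795 and 1545 FPKM with vector (861 ± 47.9 and 1670 ± 177, SD, n = 2 each). The highest STING library thus lay far under the lowest vector library, and the fall was -0.95 on the log2 scale (SE 0.11, limma adjusted p = 0.00301). ATP5G3 stood at 365 and 330 FPKM with STING and 607 and 554 FPKM with vector, again without overlap (log2 change -0.74, SE 0.11, limma adjusted p = 0.00585). ATP5G2 stood at 1072 and 1060 FPKM with STING and 1536 and 1404 FPKM with vector. Its libraries did not overlap either (log2 change -0.46, SE 0.10, limma adjusted p = 0.0230), but with quantile normalization its change was 0.01. All 3 genes of the proton-carrying ring were lower in the values as deposited.

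The catalytic head of ATP synthase behaved unequally. ATP5A1, the alpha subunit, stood at 130 and 114 FPKM with STING and 74.3 and 80.1 FPKM with vector (122 ± 11.3 and 77.2 ± 4.08, SD, n = 2 each). It was the only member that rose, with no overlap between groups (log2 change 0.65, SE 0.13, limma adjusted p = 0.0184). ATP5B, the beta subunit that holds the catalytic sites with alpha, stood at 613 and 646 FPKM with STING and 647 and 691 FPKM with vector, and its change of -0.09 (SE 0.10) did not pass the test. ATP5E, the small epsilon subunit of the central stalk, stood at 934 and 888 FPKM with STING and 1503 and 1231 FPKM with vector, a fall without overlap (log2 change -0.58, SE 0.12, limma adjusted p = 0.0205). The ATP5E change was -0.51 with median-of-ratios scaling, -0.15 with quantile normalization and -0.28 after removal of a trend on coding length. It passed in none of these. ATP5O, the stalk subunit that confers sensitivity to oligomycin, stood at 578 and 570 FPKM with STING and 771 and 764 FPKM with vector. Its libraries agreed closely within each group (log2 change -0.42, SE 0.09, limma adjusted p = 0.0283), but the change was 0.01 with quantile normalization. ATP5I, the highest member of complex V, stood at 3538 and 3221 FPKM with STING and 6593 and 4085 FPKM with vector, where the wide vector group left its change of -0.62 (SE 0.25) short of the test. The pseudogene ATP5EP2, the lowest tested entry of complex V, stood at 8.98 and 5.89 FPKM with STING and 12.2 and 5.76 FPKM with vector, and its groups overlapped. The read-through ATP5J2-PTCD1 stood at 11.4 and 12.2 FPKM with STING and 13.7 and 0.0328 FPKM with vector (log2 change 1.71, SE 1.84). Its rise without vector library 1, given above, thus rests on 1 vector value near 0.

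**Figure D2:**
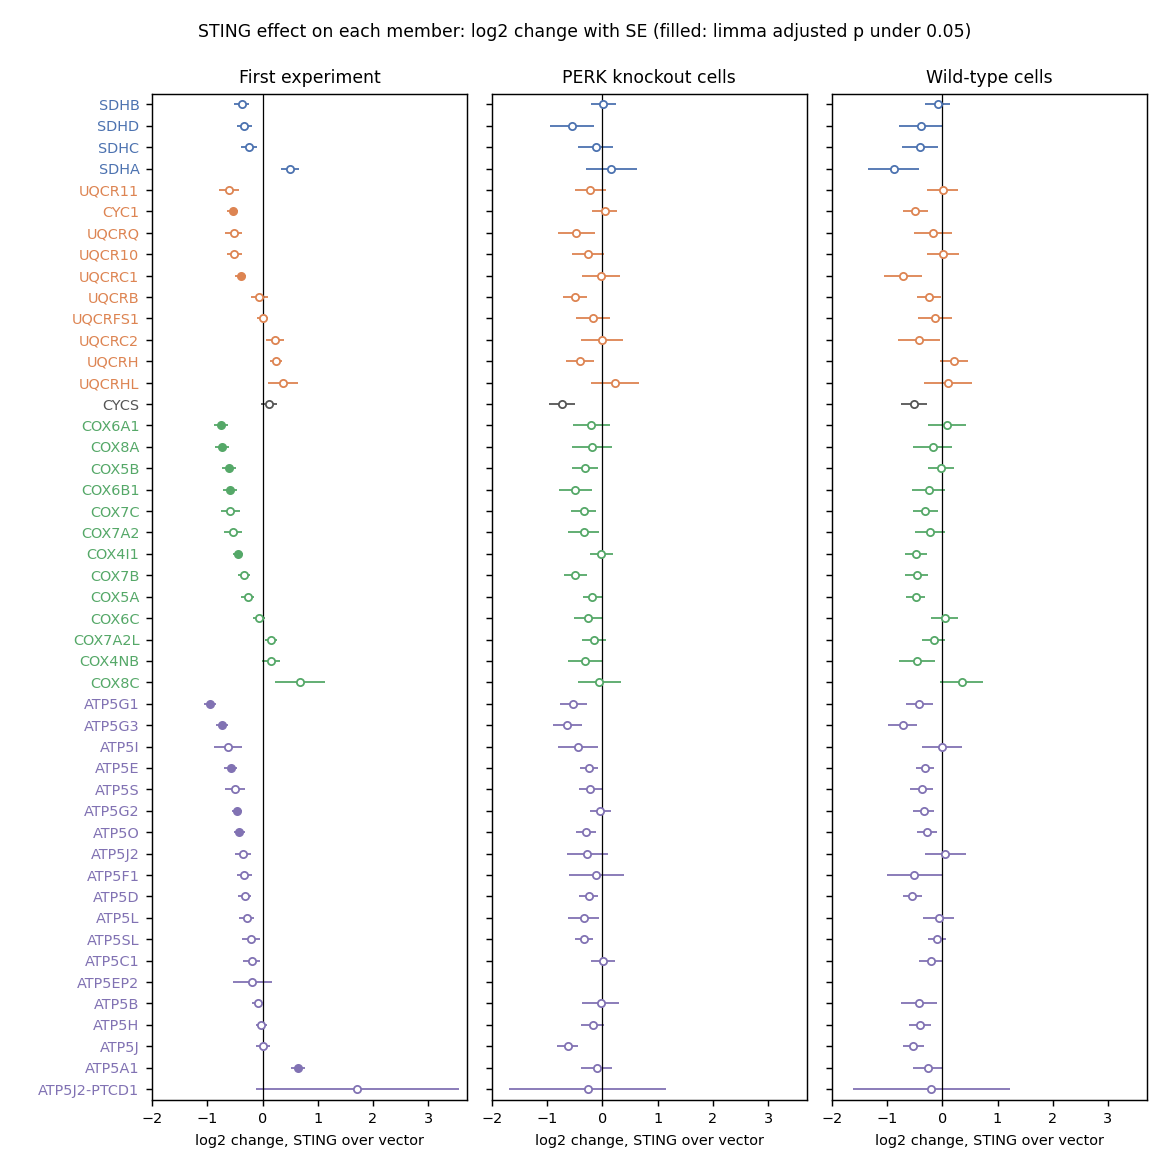
Log2 change of STING over vector with its limma SE (bars) for the 47 members tested in the first experiment, shown in the first experiment, PERK KO cells and WT cells, ordered within each complex by the first experiment. Filled points passed a limma adjusted p under 0.05: 13 in the first experiment and 0 in the other panels.

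In complex IV, the falls were those of subunits around the catalytic core, which itself is encoded in mitochondrial DNA. COX6A1, given above, averaged 5803 ± 499 FPKM with STING and 9801 ± 1246 FPKM with vector (SD, n = 2 each), without overlap (log2 change -0.75, SE 0.12, limma adjusted p = 0.00783). COX8A, a short membrane subunit, stood at 3742 and 3428 FPKM with STING and 6729 and 5290 FPKM with vector (log2 change -0.74, SE 0.13, limma adjusted p = 0.0115). COX5B, a zinc-binding subunit on the matrix side, stood at 3837 and 3756 FPKM with STING and 6591 and 5118 FPKM with vector (log2 change -0.61, SE 0.13, limma adjusted p = 0.0220). In these 3 genes the vector libraries were much further apart than the STING libraries, and the groups did not overlap. COX6B1, which joins complex IV monomers, stood at 1335 and 1249 FPKM with STING and 2145 and 1763 FPKM with vector (log2 change -0.59, SE 0.12, limma adjusted p = 0.0189). COX4I1, the common form of the subunit that binds ATP as a regulator, stood at 2028 and 2010 FPKM with STING and 2800 and 2703 FPKM with vector, and was tight in both groups (log2 change -0.45, SE 0.09, limma adjusted p = 0.0207). COX6A1, COX8A and COX5B also fell with quantile normalization, whereas none of the 5 passed with median-of-ratios scaling. COX7C, COX7A2 and COX7B, with log2 changes of -0.58, -0.53 and -0.34, were lower without overlap and did not pass.

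In complex III, CYC1, the cytochrome c1 that hands electrons to cytochrome c, stood at 784 and 823 FPKM with STING and 1111 and 1225 FPKM with vector. All STING values were below all vector values (log2 change -0.54, SE 0.10, limma adjusted p = 0.0147). CYC1 did not pass with median-of-ratios scaling or with quantile normalization, and its change ranged between -0.61 and -0.13 over all alternatives. UQCRC1, a core protein of the matrix side, stood at 666 and 682 FPKM with STING and 847 and 932 FPKM with vector (log2 change -0.40, SE 0.10, limma adjusted p = 0.0420), and its change was 0.01 with quantile normalization. Its partner core protein UQCRC2 stood at 32.1 and 34.1 FPKM with STING and 26.5 and 30.0 FPKM with vector, and its change of 0.22 (SE 0.16) did not pass. UQCRFS1, the iron-sulfur protein, stood at 254 and 244 FPKM with STING and 243 and 254 FPKM with vector, so that the groups overlapped fully. UQCR10, UQCRQ and UQCR11, small subunits, had log2 changes of -0.51, -0.53 and -0.61 without overlap and missed the threshold, while UQCRH, the hinge protein and highest member of complex III, stood at 2554 and 2348 FPKM with STING and 2245 and 1901 FPKM with vector. UQCRHL, its near copy and the lowest tested entry of complex III, stood at 7.07 and 6.77 FPKM with STING and 6.85 and 3.78 FPKM with vector.

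Within complex II, SDHA lay above vector in both STING libraries, and SDHB, SDHC and SDHD lay below it. SDHA had a log2 change of 0.50 (SE 0.17, limma unadjusted p = 0.0191), and SDHB one of -0.38 (SE 0.13, limma unadjusted p = 0.0199). SDHC and SDHD, the membrane anchors, had log2 changes of -0.24 and -0.33. None of the 4 passed the test after adjustment. CYCS, the electron carrier between complexes III and IV that also acts in apoptosis, stood at 45.3 and 44.1 FPKM with STING and 40.5 and 41.9 FPKM with vector, a change of 0.12 (SE 0.14).

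In the knockout experiment no member passed the limma test in either genotype. The whole table held few calls, 0.00816% of 12254 genes with STING in PERK KO cells and the same share in WT cells. In PERK KO cells 3 members were lower at an unadjusted limma p under 0.05 and 0 higher (6.64% and 1.06% of all genes), and the libraries did not overlap, lower with STING, for 16 of 48 members (21.9% of all genes). In WT cells 5 members were lower at an unadjusted limma p under 0.05 and 0 higher (12.4% and 0.441% of all genes), and 25 of 48 were lower without overlap (52.3% of all genes). No member was higher without overlap in PERK KO cells (5.66% of all genes) or in WT cells (3.31%). The WT count of lower members is close to the share of all genes.

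The members' median log2 change with STING was -0.24 in PERK KO cells, against -0.11 over all genes tested, and -0.25 in WT cells, against -0.27. With median-of-ratios scaling the medians were -0.06 in PERK KO cells and 0.12 in WT cells, and with quantile normalization -0.02 and -0.05. By complex, the medians in PERK KO cells were -0.05 for complex II, -0.20 for III, -0.28 for IV and -0.25 for V. In WT cells they were -0.40, -0.15, -0.20 and -0.31 for the same complexes. The order of the complexes by median thus differed between the first experiment and each genotype, with no test of that order.

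**Figure D3:**
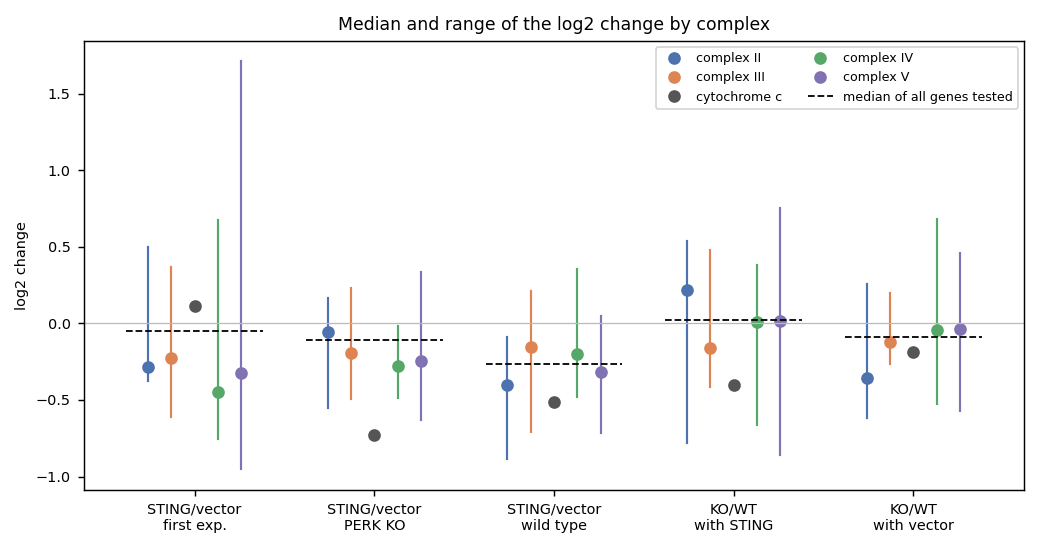
Median log2 change (points) and range over members (lines) of each complex in the 5 comparisons, with the median of all genes tested as a dashed line. The medians of complexes IV and V lay below the dashed line by the most in the first experiment (-0.45 and -0.33 against -0.05), and among complexes II to V the median of complex II moved most between comparisons.

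ATP5G3 was lower with STING in all 3 comparisons of STING with vector. It stood at 170 and 277 FPKM with STING and 291 and 390 FPKM with vector in PERK KO cells (log2 change -0.63, SE 0.26, limma adjusted p = 0.641). In WT cells it stood at 206 and 213 FPKM with STING and 353 and 338 FPKM with vector (log2 change -0.72, SE 0.26, limma adjusted p = 0.384). The changes were close to that of the first experiment in size, with a larger SE. ATP5G1 stood at 1125 and 998 FPKM with STING and 1657 and 1417 FPKM with vector in PERK KO cells, without overlap. In WT cells its groups overlapped, at 1157 and 893 FPKM with STING and 1668 and 1104 FPKM with vector. Of 46 members tested in both tables, 7 (ATP5D, ATP5E, ATP5G3, ATP5O, ATP5S, COX5A and COX7B) were lower without overlap in all 3 comparisons, or 5 symbols of complex V and 2 of complex IV, against 7.63% of 8808 genes, while 0 were higher against 0.329%.

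Members of complex IV that fell in the first experiment did not repeat it evenly. COX6A1 stood at 6285 and 4040 FPKM with STING and 7095 and 4719 FPKM with vector in PERK KO cells, and at 7922 and 6338 FPKM with STING and 8653 and 5170 FPKM with vector in WT cells. Its groups overlapped in both genotypes. COX4I1 stood at 792 and 1033 FPKM with STING and 807 and 1037 FPKM with vector in PERK KO cells, nearly the same values library by library. In WT cells it stood at 707 and 680 FPKM with STING and 1023 and 912 FPKM with vector, without overlap (log2 change -0.48, SE 0.21, limma adjusted p = 0.389). The difference of the effects, 0.46 for PERK KO minus WT (SE 0.29, limma adjusted p = 0.966), did not pass.

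CYCS and SDHA had opposite signs in the first experiment and in WT cells, a difference that was not tested. CYCS stood at 27.2 and 38.5 FPKM with STING and 45.7 and 64.5 FPKM with vector in PERK KO cells (log2 change -0.73, SE 0.24, limma adjusted p = 0.550). In WT cells it stood at 45.2 and 41.2 FPKM with STING and 60.2 and 63.8 FPKM with vector (log2 change -0.51, SE 0.24, limma adjusted p = 0.398). Both genotypes showed lower CYCS without overlap, while in the first experiment CYCS was higher without overlap. SDHA stood at 10.8 and 21.0 FPKM with STING and 9.18 and 19.2 FPKM with vector in PERK KO cells. In WT cells it stood at 8.37 and 13.9 FPKM with STING and 15.8 and 27.4 FPKM with vector. Its libraries were spread widely within every group of the knockout experiment.

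**Figure D4:**
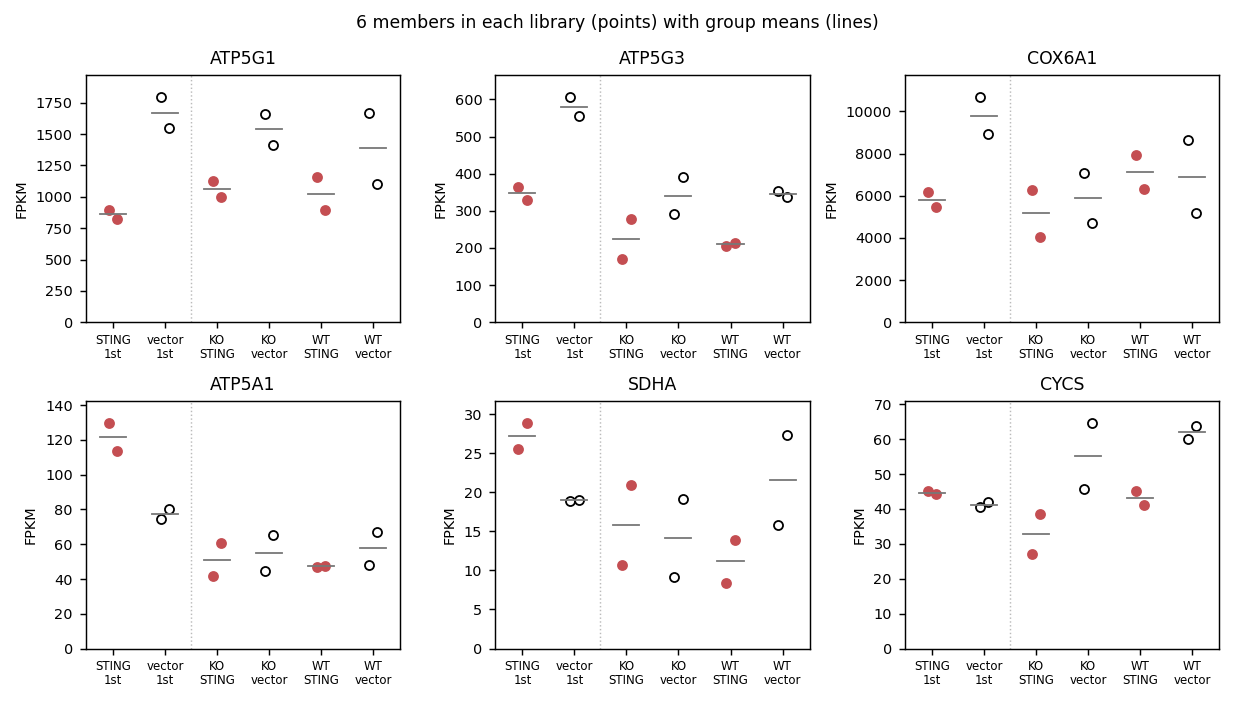
FPKM of 6 members in every library (points, STING filled, vector open) with group means (lines), first experiment left of the dotted line and knockout experiment right of it, each panel from 0. ATP5G3 lay lower with STING in the first experiment, PERK KO and WT cells, whereas ATP5A1, SDHA and CYCS lay higher with STING in the first experiment and lower in WT cells.

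No member passed the test of the interaction, the STING effect in PERK KO cells minus that in WT cells, and neither did any of 12254 genes (0%). At an unadjusted limma p under 0.05, 0 members stood out, against 3.04% of all genes with a higher and 0.832% with a lower effect in PERK KO cells. The members' median difference was -0.02, against 0.13 over all genes. SDHA had the highest difference, 1.05 (SE 0.66, limma adjusted p = 0.966), and UQCRH the lowest, -0.61 (SE 0.36, limma adjusted p = 0.966). The SE exceeded the difference for most members.

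Between genotypes no member passed either, with 1.75% of all genes past the threshold with STING (1.21% higher, 0.547% lower) and 0.049% with vector (0.0326% higher, 0.0163% lower). With STING, the PERK KO libraries also held less TMEM173, as given above. With quantile normalization 4 members passed with STING: ATP5G2 higher, and ATP5I, ATP5SL and COX5B lower. Over all genes, 265 were then higher and 203 lower. ATP5SL, now DMAC2, came closest in the values as deposited. With STING it stood at 37.1 and 36.7 FPKM in PERK KO cells and 65.0 and 65.8 FPKM in WT cells (log2 change -0.81, SE 0.16, limma adjusted p = 0.0541), and its adjusted p by limma was 0.0389 with median-of-ratios scaling and 0.0412 with quantile normalization, within a range of 0.0212 to 0.383 over all alternatives. With vector it stood at 45.4 and 48.4 FPKM in PERK KO cells and 68.4 and 71.8 FPKM in WT cells (log2 change -0.57, SE 0.16, limma adjusted p = 0.247). PERK KO libraries were thus below WT libraries under both plasmids. ATP5G2 stood at 1335 and 1337 FPKM in PERK KO cells and 872 and 716 FPKM in WT cells with STING (log2 change 0.76, SE 0.19, limma adjusted p = 0.101). With vector it stood at 1440 and 1309 FPKM in PERK KO cells and 1118 and 887 FPKM in WT cells (log2 change 0.46, SE 0.19, limma adjusted p = 0.384). Its PERK KO libraries lay above its WT libraries in both comparisons. With STING, the unadjusted limma p was under 0.05 for 2 higher and 3 lower members (10.3% and 7.1% of all genes), and with vector for 1 higher and 1 lower (4.38% and 7.99%). Libraries did not overlap for 8 higher and 8 lower members with STING (24.8% and 20.6% of all genes) and for 4 higher and 4 lower with vector (12.5% and 25.8%). The members' median was -0.01 with STING, against 0.02 over all genes, and -0.08 with vector, against -0.09.

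Coding length moved with several of these values. The members are short, with a median coding length of 397.5 bases over the 52 with one, against 1200 over the tested genes of the first experiment, and complex IV is the shortest at 277.5. Across members, the log2 change with STING correlated with length at Spearman rho 0.38 in the first experiment (n = 46). The rho was 0.41 in PERK KO cells and -0.49 in WT cells (n = 48 each). Over all genes these values were 0.29, 0.19 and -0.02. For the interaction, rho across the 48 members was 0.63, against 0.17 over all genes. For PERK KO against WT it was -0.49 with vector (-0.08 over all genes) and 0.23 with STING (0.07). Length also separated libraries of the same group. Of the 29 members of the knockout experiment with a coding length under 500 bases, 25 were higher in WT vector library 1 than in library 2, with a median ratio of 1.40, while 4 of the 19 longer ones were, with a median ratio of 0.815. In WT cells with STING these counts were 23 of 29 and 8 of 19, with median ratios of 1.24 and 0.985. In PERK KO cells they were 23 of 29 and 1 of 19 with STING and 22 of 29 and 2 of 19 with vector. The first experiment showed the same split, with 23 of 27 and 6 of 19 with vector and 23 of 27 and 8 of 19 with STING. Its median ratios were 1.22 and 0.928 with vector and 1.08 and 0.952 with STING. Over all genes tested, the log2 difference of library 1 minus library 2 had a Spearman rho with length between -0.20 and -0.025 in the 4 groups of the knockout experiment. After removal of a smooth trend on coding length in each library, the members' median in the first experiment was -0.14, against -0.06 over all genes. Of 46 members, 10 fell and 2 rose, against 848 and 337 of 8761 genes. Of the 13 members above, 11 passed again, and ATP5E and ATP5O did not. For the knockout experiment, values without the length trend are given in the last section. The part of length in its results was not tested further.

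**Figure D5:**
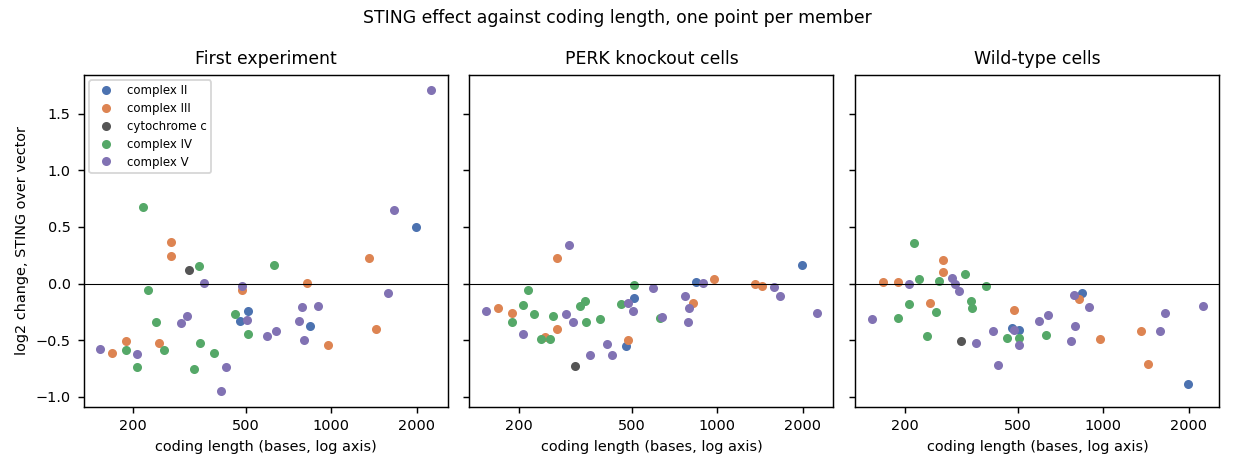
Log2 change of STING over vector against coding length (bases, log axis), 1 point per member coloured by complex, in the first experiment, PERK KO cells and WT cells. The points slope upward in the first experiment (Spearman rho 0.38) and in PERK KO cells (0.41) and downward in WT cells (-0.49).

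Genes around the members were counted in the first experiment by the same limma test, by which 9.29% of all genes fell and 2.51% rose. Of 38 complex I subunits, 18 fell and 1 rose, with a median log2 change of -0.50. NDUFA13, an accessory subunit of complex I, stood at 2120 and 2035 FPKM with STING and 4614 and 4058 FPKM with vector (log2 change -1.06). NDUFS1, the 1 that rose, stood at 8.19 and 7.56 FPKM with STING and 3.63 and 3.76 FPKM with vector (log2 change 0.92). Of 78 mitochondrial ribosomal protein symbols, 20 fell and 0 rose (median -0.26). Among assembly factors, 1 of 4 fell for complex II, 2 of 7 for complex III, 3 of 23 for complex IV and 1 of 4 for complex V, and none rose. SDHAF2, which attaches the flavin to SDHA, stood at 64.3 and 63.6 FPKM with STING and 109 and 106 FPKM with vector (log2 change -0.74). CCDC56, now COA3, a complex IV assembly factor, stood at 633 and 667 FPKM with STING and 1178 and 1177 FPKM with vector (log2 change -0.86). Both had tight groups that did not overlap. NDUFA4, first described in complex I and since placed in complex IV, stood at 206 and 197 FPKM with STING and 419 and 357 FPKM with vector (log2 change -0.94), and C14orf2, a small ATP synthase protein, had a log2 change of -0.43. These were 2 of 4 further subunits and regulators tested, and the other two did not pass. Of 10 regulators of respiratory genes, 1 rose and 0 fell: YY1 stood at 17.7 and 16.9 FPKM with STING and 8.86 and 9.64 FPKM with vector (log2 change 0.84). Of 13 citric acid cycle enzymes, 1 fell, IDH3G, with a log2 change of -0.59, and none rose. In the knockout experiment 0 genes of these lists passed for STING in either genotype, while with STING 1 of 38 complex I subunits and 7 of 76 mitochondrial ribosomal protein symbols were lower in PERK KO than in WT cells, against 0.547% of all genes.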

How the data were processed

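RNA of polysome fractions from 12 libraries was analysed, 2 in each of 6 groups taken from the sample titles. Per the submitters' processing notes, the authors used TopHat2 2.1.1, Cufflinks 2.2.1 and build hg19. The deposited table of the first experiment holds FPKM. That of the knockout experiment names no unit; it was taken as FPKM raised to at least 1, so falls of low genes are understated. Cufflinks divides fragments among overlapping transcripts, so near copies can trade fragments. Without counts the depth of a library is unknown, and intervals or detection limits are not given. In the first experiment, steps among low values put relative depths between 0.883 and 1, and 38.7% to 40.2% of symbols stood at 0.

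Tests ran within each table in R 4.3.3 (limma 3.58.1). Values entered as log2(FPKM + 1), which understates changes of low genes. Genes averaging under 1 FPKM, or constant, were left out. The fit used 1 mean per group and eBayes with trend and robust estimation. P-values are two-sided and adjusted by Benjamini and Hochberg over all genes tested, with a threshold of 0.05. The code was tested on simulated data. Members, lists, motifs and the naming rule were chosen with earlier results of these data known. Named were members past the threshold, the highest and lowest of each complex, tissue isoforms, and further members chosen after their values were seen. Coding lengths are the longest in GENCODE on GRCh38, and promoters are RefSeq's. Some marker gene values are not reported here. Total RNA was not analysed here, so RNA amount and ribosome loading cannot be told apart, nor can fewer cells and less RNA per cell.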

Additional observations from a re-analysis of the deposited data

Results flagged for a closer look

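For 4 members, both STING libraries of the first experiment lay on one side of the vector libraries and those of the WT cells on the other. These differences between experiments were not tested, since the tables were normalized apart. SDHA differed by 1.38 on the log2 scale (0.50 in the first experiment, -0.88 in WT cells), ATP5A1 by 0.908 (0.65 and -0.26), CYCS by 0.628 (0.12 and -0.51) and COX7A2L, a factor of supercomplex assembly, by 0.307 (0.15 and -0.15). CYCS also differed by 0.846 between the first experiment (0.12) and PERK KO cells (-0.73). COX5A, a matrix-side subunit of complex IV, lay higher in PERK KO than in WT cells with STING (0.20) and lower with vector (-0.10). That difference of 0.30 was tested as the interaction and did not pass (limma adjusted p = 0.966, unadjusted 0.260).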

How the results depend on the processing

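In the first experiment, the 13 members past the threshold became 6 with no filter on low values, 3 with median-of-ratios scaling (1 higher, 2 lower), 8 with quantile normalization (3 higher, 5 lower), 0 with eBayes without trend and robust estimation and 23 with a replicate block (1 higher, 22 lower). They ranged between 0 and 16 when 1 library was left out. Leaving out STING library 1 or 2 gave 0 each and leaving out vector library 1 gave 6, and a lone library was then assumed to vary like the other group. All 13 genes kept their call with a pseudocount of 5 or 0.1, a mean of at least 5 and the block. With quantile normalization, ATP5G2 (0.011), ATP5O (0.015) and UQCRC1 (0.013) had the opposite sign. Over all genes, 238 rose and 879 fell in the values as deposited, 305 and 673 with median-of-ratios scaling, and 346 and 431 with quantile normalization. With no filter on low values 104 rose and 476 fell. These counts were 10 and 7 with eBayes without trend and robust estimation, and 375 and 1212 with the replicate block. The cause was not tested.

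The members' median log2 change in the first experiment was 0.011 with quantile normalization and -0.14 after the length trend was removed, and between -0.40 and -0.30 with 1 library left out. With STING in PERK KO cells it was -0.057 with median-of-ratios scaling, -0.017 with quantile normalization and -0.12 without the length trend. In WT cells it was 0.12 and -0.047 with these scalings, and between -0.36 and -0.19 with 1 library left out. The interaction median was -0.22 with median-of-ratios scaling and 0.11 without the length trend, and between -0.047 and 0.17 with 1 library left out. The median of PERK KO against WT with vector was 0.095 with median-of-ratios scaling, and between -0.16 and 0.036 with 1 library left out.

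Of PERK KO against WT with STING, 1 member passed with a mean of at least 5, with median-of-ratios scaling and with eBayes without trend and robust estimation, each time ATP5SL. Over all genes, 217, 281 and 166 were higher in these settings, and 139, 168 and 82 lower. The count of members was 4 with quantile normalization, 2 without the length trend and 6 with the replicate block (ATP5G2 higher, and ATP5I, ATP5SL, COX5B, COX6A1 and UQCRH lower). Over all genes, 265 were higher and 203 lower with quantile normalization. These counts were 145 and 61 without the length trend, and 531 and 320 with the replicate block. The labels do not say that replicate numbers pair the libraries, although column names of the first experiment share a letter within each replicate number. Same-numbered deviations correlated at 0.0741 in the first experiment. Among PERK KO and WT groups they correlated at 0.0421 for 1 pair of groups and between 0.119 and 0.528 for the other 5, so the libraries were not treated as paired. The replicate block changed no other count of members.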
